A study of Mus musculus with 6 samples.

Results

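The chromosome 9 metalloproteinase cluster is a row of genes that encode secreted proteases of the collagenase and stromelysin type. Its 7 members described here are Mmp13, Mmp12, Mmp1b, Mmp3, Mmp1a, Mmp10 and Mmp8, taken by symbol from a table of 55334 genes, and all 7 were found there. They were chosen by their symbols with their counts in JAG2KO against Scramble already known, so levels and fold changes are given as a description and carry no p-value. RNA came from Lewis lung carcinoma cells, a mouse lung cancer line that carried green fluorescent protein (GFP). In the Scramble group the cells held a scrambled guide RNA and in the JAG2KO group a guide RNA against Jag2, a ligand gene of the Notch pathway. Cells of both groups were grown as flank tumours in mice and sorted as GFP-positive, CD45-negative and DAPI-negative cells, with 3 libraries in each group. The sources used here give no strain, sex or age of the hosts and do not say whether the JAG2KO cells were 1 clone or a pool. Nor do they tie each library to a mouse of its own, so errors and p-values cover the spread among these 6 samples alone, which may be technical.

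Matrix metalloproteinases are zinc proteases that are secreted as inactive proenzymes and cut proteins of the extracellular matrix. The stromelysins Mmp3 and Mmp10 cleave proteoglycans, fibronectin and laminin and can activate other proenzymes of the family. Collagenases such as Mmp13 and Mmp8 cut the triple helix of fibrillar collagen, and Mmp12, the macrophage elastase, degrades elastin. In tumours these enzymes are made by cancer cells, fibroblasts, macrophages and neutrophils. Many genes of the family are switched on through an AP-1 site, bound by Fos and Jun proteins, that lies close to the start of transcription.

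The members lie side by side over 296 kb of chromosome 9 (GRCm38, GENCODE M21). Along the chromosome the order is Mmp13 (chr9:7272514-7283331), Mmp12 (chr9:7344381-7369499), Mmp1b (chr9:7368239-7388047), Mmp3 (chr9:7445822-7455975), Mmp1a (chr9:7464141-7476869), Mmp10 (chr9:7502352-7510240) and Mmp8 (chr9:7558456-7568485). Mmp1b is on the minus strand and the other 6 are on the plus strand. Mmp1a is annotated as a polymorphic pseudogene and the others as protein coding. Exons of Mmp12 and Mmp1b overlap by 157 bases on opposite strands. Without a known strand setting, reads over them cannot be assigned, so the level of Mmp1b is uncertain. Mmp1a and Mmp1b are close copies of each other, and Mmp3 and Mmp10 are close relatives. Of the 50-base stretches in its annotated transcripts, Mmp1b shared 11.8% with Mmp1a, and Mmp10 shared 8.37% with Mmp3, so reads over those stretches could be lost or split. Mmp13 and Mmp8 shared 0 such stretches with any other gene.

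The sequences just before the transcript starts are printed because the members that were low in JAG2KO share a motif there. Each line holds 110 bases before and 20 bases from the RefSeq transcript start (GRCm38.p6), on the strand of the gene. Capitals mark the AP-1 motif TGAGTCA or its reverse complement TGACTCA, and the TATA motif TATAAA or its reverse complement TTTATA.
Mmp3: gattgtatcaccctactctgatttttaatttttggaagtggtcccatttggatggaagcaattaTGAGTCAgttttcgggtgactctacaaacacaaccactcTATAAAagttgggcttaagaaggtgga
Mmp10: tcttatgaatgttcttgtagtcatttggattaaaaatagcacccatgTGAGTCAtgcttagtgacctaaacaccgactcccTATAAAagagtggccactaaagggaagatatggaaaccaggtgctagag
Mmp12, downstream start: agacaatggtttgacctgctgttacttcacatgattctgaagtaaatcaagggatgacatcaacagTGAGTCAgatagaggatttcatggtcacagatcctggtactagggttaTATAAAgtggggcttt
Mmp13: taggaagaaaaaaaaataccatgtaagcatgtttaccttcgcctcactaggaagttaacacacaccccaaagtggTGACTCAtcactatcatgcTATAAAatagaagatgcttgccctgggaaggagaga
Mmp1a: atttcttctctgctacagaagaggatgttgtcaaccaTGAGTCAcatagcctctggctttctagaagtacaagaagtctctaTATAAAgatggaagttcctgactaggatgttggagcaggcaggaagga
Mmp1b: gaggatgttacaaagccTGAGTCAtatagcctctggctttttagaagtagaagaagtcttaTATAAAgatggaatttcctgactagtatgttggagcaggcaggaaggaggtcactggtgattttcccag
Mmp8: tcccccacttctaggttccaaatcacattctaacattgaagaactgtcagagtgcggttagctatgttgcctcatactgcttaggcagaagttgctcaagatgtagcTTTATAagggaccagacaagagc
The windows are chr9:7445712-7445841 for Mmp3, chr9:7502232-7502361 for Mmp10, chr9:7347264-7347393 for Mmp12, chr9:7272404-7272533 for Mmp13, chr9:7464031-7464160 for Mmp1a, chr9:7558319-7558448 for Mmp8 and, on the minus strand, chr9:7388007-7388136 for Mmp1b.

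All 7 members had an entry among the RefSeq promoters, which hold 250 bases before and 50 bases from each start, and Mmp12 had 2 starts. The AP-1 motif was present once in each of Mmp3, Mmp10, Mmp13, Mmp1a and Mmp1b and at the downstream start of Mmp12, and the Mmp8 window did not hold those letters. Of 32851 promoters of the same length, 5.2% held this motif. Its first base was 46 bases before the annotated start in Mmp3, 63 in Mmp10, 44 in Mmp12, 35 in Mmp13, 73 in Mmp1a and 93 in Mmp1b. The TATA motif began 7 bases before that start in Mmp3, 29 in Mmp10, 16 in Mmp13, 28 in Mmp1a and 49 in Mmp1b, and at base 5 after it in Mmp12. These distances depend on the annotated starts, which were not checked in these libraries. From the AP-1 motif to the TATA motif, first base to first base, there were 19 bases in Mmp13, 34 in Mmp10, 39 in Mmp3, 44 in Mmp1b, 45 in Mmp1a and 48 in Mmp12. Both motifs together were found in 0.941% of all promoters. The upstream start of Mmp12 held neither motif, and which of its starts these libraries used was not analysed here. The motif TGGGAA (reverse complement TTCCCA), the core of the site of the Notch partner RBPJ, was found in the windows of Mmp13 and Mmp1b, against 25.6% of all promoters. Both matches lay after the start, at bases 8 to 13 in Mmp13 and 14 to 19 in Mmp1b, with the start as base 1. The Ets motif AGGAAG (reverse complement CTTCCT) was also searched for and was found in 35.4% of all promoters. It was present in Mmp13, Mmp1b, Mmp3, Mmp1a, Mmp8 and at the upstream start of Mmp12. Mmp10 and the downstream start of Mmp12 held none, so this motif did not set Mmp8 apart. These matches are descriptions of sequence, and no binding was measured.

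**Figure D1:**
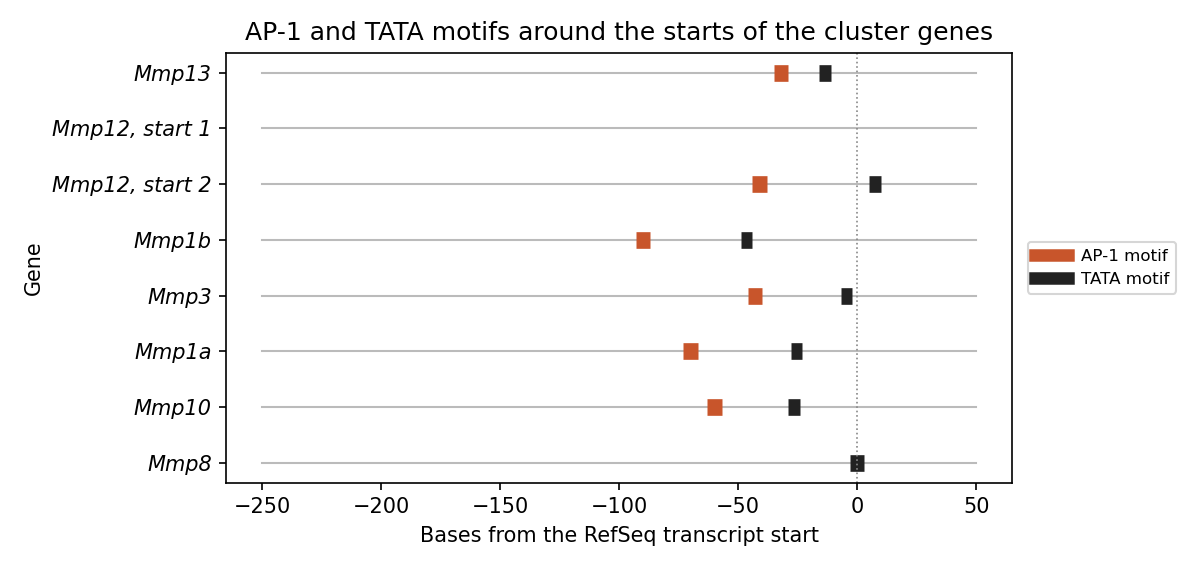
Position of the AP-1 motif (orange) and the TATA motif (black) in the RefSeq promoter windows of the 7 members, in bases from the transcript start, with both annotated starts of Mmp12. Mmp13, the downstream start of Mmp12, Mmp1b, Mmp3, Mmp1a and Mmp10 each hold an AP-1 motif between 35 and 93 bases before the start, whereas Mmp8 and the upstream start of Mmp12 hold none.

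Libraries held 37036772 to 43923565 counts, so 3 counts, the limit used for a count of 0, were worth 0.068 to 0.0811 CPM (counts per 1000000 counts of the library, its size adjusted by TMM factors). Across all genes, 12.5% of 16049 tested genes were lower in JAG2KO and 11.8% were higher (edgeR quasi-likelihood test, adjusted p under 0.05). Jag2 itself had 1.02 to 1.52 CPM in Scramble and 0.513 to 1.11 CPM in JAG2KO and did not pass the test (adjusted p by edgeR = 0.318), so its RNA does not check the labels. Vim, the gene of a mesenchymal filament protein, had 4760 to 5810 CPM, while the lung epithelial factor gene Nkx2-1 had 0 counts in all 6 libraries (both named after their values were seen).

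Summed over the 7 members, the cluster measured 1078, 1032 and 751 CPM across Scramble replicates 1, 2 and 3. The JAG2KO libraries, called here by their column names JagKO2, JagKO3 and JagKO4, had 91.4, 86 and 67.8 CPM. The group means were 954 ± 177 CPM (SD, n = 3) and 81.7 ± 12.3 CPM (SD, n = 3), a ratio of 11.7-fold. In bulk RNA, fewer cells that express a gene and less RNA per cell cannot be told apart. Of the 7 members, 6 passed the low-count filter and were tested. All 6 were lower in JAG2KO by edgeR and 0 were higher, and in all 6 every Scramble library lay above every JAG2KO library, a separation that 20.9% of all tested genes showed in this direction. These counts restate the contrast by which the members were chosen.

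**Figure D2:**
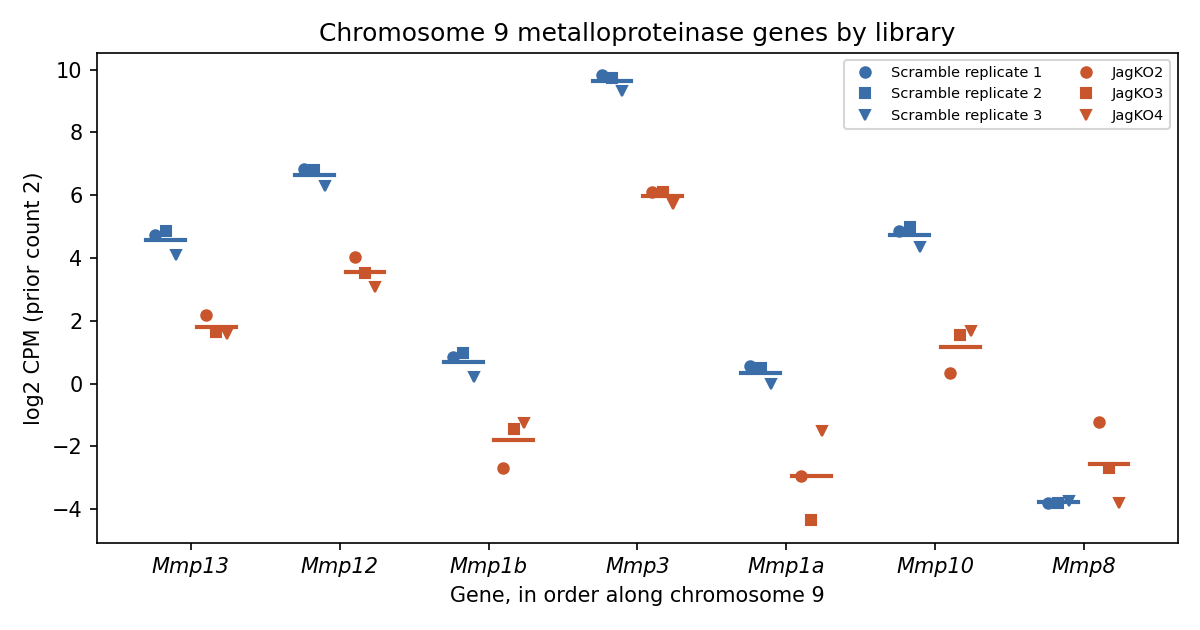
Log2 CPM (prior count 2) of each member in each library, with genes in their order on chromosome 9, bars at group means, Scramble in blue and JAG2KO in orange. For the 6 tested members the Scramble points lie above all JAG2KO points, and for Mmp8, which has 1 count in every Scramble library, the groups overlap.

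Mmp3 (stromelysin-1) carried most of the RNA of the cluster. Scramble replicates 1, 2 and 3 held 904, 857 and 633 CPM. Far lower were JagKO2, JagKO3 and JagKO4, with 68.7, 68.1 and 52.5 CPM. All 3 Scramble libraries were high and all 3 JAG2KO libraries low, with no overlap. The log2 fold change was -3.66 (SE 0.14), a 12.6-fold difference of the means. Mmp3 made up 83.1% to 84.2% of the counts of the cluster in Scramble and 75.2% to 79.2% in JAG2KO.

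Its close relative Mmp10 (stromelysin-2) measured 29.3, 31.5 and 20.4 CPM in the Scramble libraries. The JAG2KO libraries had 1.22, 2.85 and 3.14 CPM, lowest in JagKO2. The log2 fold change was -3.48 (SE 0.27), again with every Scramble library above every JAG2KO library. Counts of Mmp3 were 27.2 to 31 times those of Mmp10 in Scramble, against 56.5 times in JagKO2, 23.9 in JagKO3 and 16.7 in JagKO4. The ratio of these 2 stromelysin genes thus held within Scramble and varied widely in JAG2KO, on both sides of the Scramble range.

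Mmp12, the macrophage elastase gene, was the second most abundant member by counts. Its values were 114, 111 and 78.9 CPM for Scramble replicates 1, 2 and 3. They were 16.5, 11.6 and 8.49 CPM for JagKO2, JagKO3 and JagKO4. The groups did not overlap, and the log2 fold change was -3.06 (SE 0.20). The sort was for CD45-negative cells, yet macrophage markers were detected in every library. A sum of 16 of them was 125, 123 and 106 CPM for Scramble replicates 1, 2 and 3, and 180, 173 and 158 CPM for JagKO2, JagKO3 and JagKO4. Between the groups this sum moved opposite to Mmp12, and within each group its libraries had the same order as Mmp12. The part of macrophages in the Mmp12 level was not tested.

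Mmp13 (collagenase-3), which cleaves fibrillar collagen, measured 26.6, 29.3 and 17.2 CPM in the Scramble libraries. It was at 4.46, 3.09 and 2.98 CPM in JagKO2, JagKO3 and JagKO4. Scramble was above JAG2KO in every pair of libraries, and the log2 fold change was -2.80 (SE 0.22). Counts of Mmp3 were 29.3 to 36.9 times those of Mmp13 in Scramble and 15.4 to 22.1 times in JAG2KO. The ratio of Mmp12 to Mmp13 moved less, from 3.78 to 4.6 in Scramble and from 2.85 to 3.75 in JAG2KO.

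Mmp1a and Mmp1b, the rodent relatives of interstitial collagenase, were present at low levels. Mmp1a had 63, 60 and 37 counts in Scramble replicates 1, 2 and 3, or 1.43, 1.38 and 0.941 CPM. In JagKO2, JagKO3 and JagKO4 it had 3, 0 and 13 counts, where the 0 allows up to 0.0798 CPM. Scramble was thus higher throughout. The log2 fold change was -3.21 (SE 0.73), or -4.85 without JagKO4 and -2.66 without JagKO3. Mmp1b had 77, 84 and 44 counts in Scramble, or 1.74, 1.93 and 1.12 CPM. It had 4, 12 and 16 counts in JagKO2, JagKO3 and JagKO4, with a log2 fold change of -2.56 (SE 0.48). With the counts of these copies summed before the fit, the log2 fold change of the pair was -2.83 (SE 0.43), and for Mmp3 and Mmp10 summed it was -3.66 (SE 0.14).

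Mmp8, the collagenase of neutrophils, was almost silent and did not follow the others. It had 1 count in each Scramble library and 14, 4 and 1 counts in JagKO2, JagKO3 and JagKO4. The groups overlapped, and the gene was too low to be tested. The ratio of JAG2KO to Scramble counts, scaled by library size, was 6.82 (exact 95% interval 2.01 to 36, counting error only). Most of the JAG2KO counts came from JagKO2, and without that library the ratio was 2.62 (exact 95% interval 0.509 to 16.9). Of 13 neutrophil and mast cell markers, 3 were tested and 0 passed by edgeR in either direction, nor by DESeq2 or limma-voom (at an unadjusted p under 0.05, 1 was lower and 0 were higher). These markers summed to 2.64 to 5.42 CPM in Scramble and 3.33 to 4.03 CPM in JAG2KO, a sum that mixes neutrophil and mast cell genes. The neutrophil marker Ly6g, named after its values were seen, had 0 counts in 4 of the 6 libraries and 1 in each of the others. Also so named, S100a8 had 33, 26 and 48 counts in Scramble and 3, 19 and 19 in JAG2KO (adjusted p by edgeR = 0.137). S100a9 had 66, 24 and 35 counts in Scramble and 9, 27 and 47 in JAG2KO (adjusted p by edgeR = 0.547).

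Per kilobase of annotated exon, Mmp3 stood far above the rest in Scramble, at 443 CPM per kb. Mmp10 followed with 15.7 ± 3.41 CPM per kb (SD, n = 3), Mmp12 with 14 ± 2.7 CPM per kb and Mmp13 with 9.11 ± 2.38 CPM per kb. The gap between Mmp10 and Mmp12 was within their spread. Mmp1b with 1.1 CPM per kb and Mmp1a with 0.617 CPM per kb came next, and Mmp8 was last with 0.00976 CPM per kb. In JAG2KO, Mmp3 again led with 35 CPM per kb. The values of Mmp12 (1.68 ± 0.555 CPM per kb), Mmp10 (1.39 ± 0.602 CPM per kb) and Mmp13 (1.31 ± 0.309 CPM per kb) lay within their spread of each other. The annotated exons of Mmp12 add up to 7.24 kb over all its transcripts, against 1.45 to 2.67 kb for the others, which lowers its value per kilobase.

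Within Scramble the tested members varied together. Replicate 3 was the lowest Scramble library for all 6 of them, at 28.2% (Mmp3) to 39% (Mmp1b) below the mean of the other Scramble libraries. Replicate 1 was the highest for 3 of them and replicate 2 for the other 3. Genes outside the cluster differed: Mmp9 and Egfr were also lowest in replicate 3, while Mmp2 and Serpinb2 were highest there. How many of all tested genes were lowest in replicate 3 was not counted, so this order may belong to the library. The macrophage marker sum was also lowest in replicate 3, at 106 CPM against 123 and 125 CPM. The fibroblast marker sum differed little, at 5113, 5141 and 5044 CPM in replicates 1, 2 and 3, and most of it was Col3a1 (3583, 3747 and 3510 CPM). Single fibroblast markers ran both ways: in the same order Col1a1 had 280, 230 and 391 CPM and Dcn 406, 385 and 329 CPM. The part of these markers in the member levels was not tested.

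Within JAG2KO the members parted. JagKO2 had the highest Mmp12, Mmp13, Mmp3 and Mmp8 of its group and the lowest Mmp10 and Mmp1b. JagKO4 had the highest Mmp10, Mmp1a and Mmp1b and the lowest Mmp12, Mmp13, Mmp3 and Mmp8. Mmp12 in JagKO2 was 1.64 times the mean of the other JAG2KO libraries, and Mmp10 was 0.406 times that mean. The coefficient of variation in JAG2KO was 14.5% for Mmp3, 23.5% for Mmp13, 33% for Mmp12, 43.2% for Mmp10, 52.2% for Mmp1b and 122% for Mmp1a. In Scramble it was 18.2% to 26.5% for these 6 genes. Fibroblast markers were also highest in JagKO2, at 10075 CPM in sum, against 6850 CPM in JagKO3 and 6413 CPM in JagKO4. The macrophage marker sum had the same order, with 180, 173 and 158 CPM. Whether either bears on the order of the libraries was not tested. The low counts of Mmp1a and Mmp1b in JAG2KO add counting error to their spread.

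**Figure D3:**
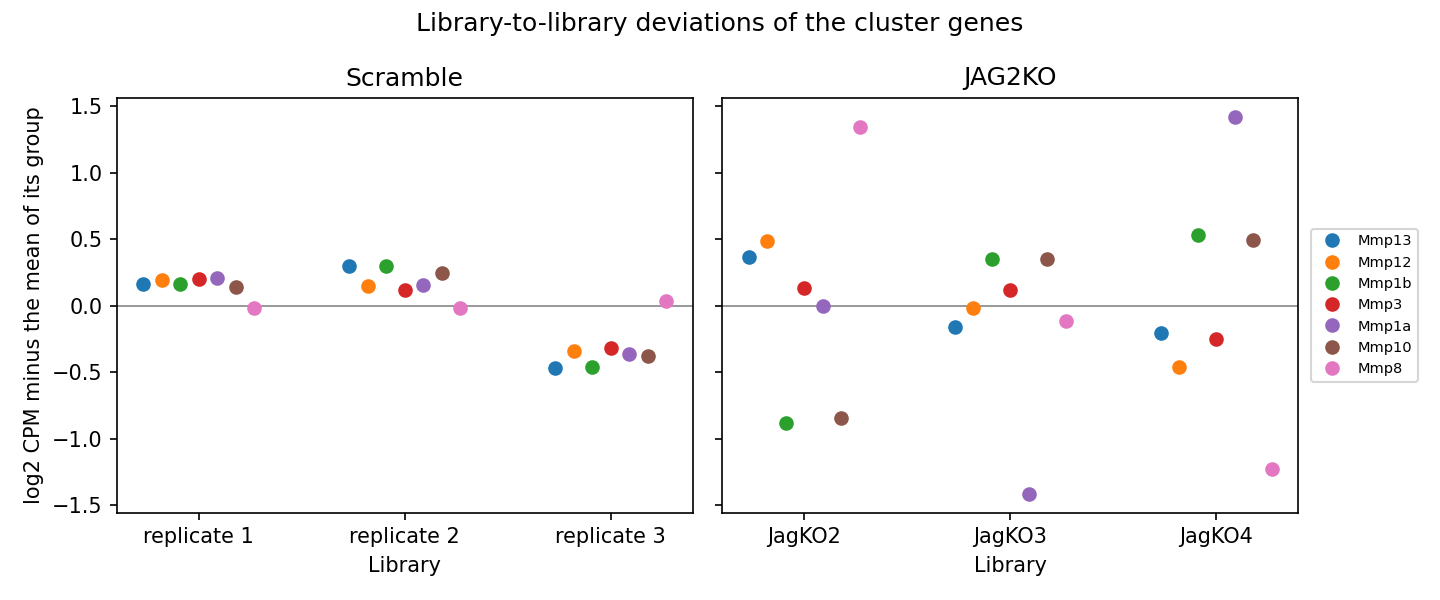
Log2 CPM (prior count 2) of each member minus the mean of its group, by library, for Scramble (left) and JAG2KO (right). The 6 tested members lie together in Scramble, all below their mean in replicate 3, and spread apart in JAG2KO, where Mmp12 and Mmp13 are above their mean in JagKO2 and Mmp10 and Mmp1b below it.

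The patterns over the 6 libraries were compared by the root mean square difference of log2 CPM after each gene was centred on its own mean. The measure spans both groups, so it largely ranks genes by the size of the group difference, which was known when the members were chosen. Among members, Mmp12 and Mmp13 were the closest pair, with a difference of 0.22. Mmp12 and Mmp3 differed by 0.34, Mmp3 and Mmp13 by 0.48, and Mmp3 and Mmp10 by 0.52. Mmp8 differed from every other member by 2.09 to 2.66. Over 11496 other genes with a mean of at least 2 CPM, the closest to Mmp3 were 9330182L06Rik on chromosome 5 (0.19), Nfib, a transcription factor gene on chromosome 4 (0.19), and Fjx1 on chromosome 2 (0.20). Their log2 fold changes were -3.41, -3.41 and -3.80, beside -3.66 for Mmp3. Within Scramble, 9330182L06Rik and Nfib were, like Mmp3, lowest in replicate 3, whereas Fjx1 was highest there, at 5.98 CPM. The closest to Mmp12 were 9330182L06Rik (0.20), its fellow member Mmp13 (0.22) and the growth factor gene Bmp4 on chromosome 14 (0.26). Nfib had means of 24.2 ± 1.63 CPM (Scramble) and 2.28 ± 0.18 CPM (JAG2KO; SD, n = 3).

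The other metalloproteinase genes of the same chromosome segment lie just beyond Mmp8. Mmp27 starts 2.91 kb after its end and measured 0.43, 0.504 and 0.509 CPM in the Scramble libraries. It was at 0.675 CPM in JagKO2, 0.266 in JagKO3 and 0.185 in JagKO4, so JAG2KO values lay on both sides of Scramble. The fitted log2 fold change was -0.37 (SE 0.57, adjusted p by edgeR = 0.693), or -1.09 without JagKO2 (adjusted p by edgeR = 0.275). Mmp20, an enamel protease gene, and Mmp7 (matrilysin) had 0 counts in all 6 libraries, although Mmp7 also holds an AP-1 motif, 63 bases before its upstream start.

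Most genes on either side of the cluster did not pass the test. Within 2 Mb of the outermost members, 17 other genes were tested, of which 0 were higher and 1 was lower by edgeR, with a median log2 fold change of -0.01. At an unadjusted p under 0.05, 2 were higher and 2 lower; DESeq2 called 1 higher and limma-voom 0. On all of chromosome 9 without the members, 108 of 897 tested genes were lower and 91 higher. The nearest gene before Mmp13, Dcun1d5, ends 64.3 kb away and had means of 84.9 ± 20.2 CPM (Scramble) and 82.4 ± 2.29 CPM (JAG2KO; SD, n = 3). Next to it, the dynein gene Dync2h1 had a log2 fold change of 0.27 (SE 0.11, adjusted p by edgeR = 0.0921), and the growth factor gene Pdgfd one of 0.71 (SE 0.54, adjusted p by edgeR = 0.381). Beyond the other end, Tmem123, 196 kb from Mmp8, had a log2 fold change of 0.03 (SE 0.06, adjusted p by edgeR = 0.763). The inhibitor of apoptosis genes Birc2 and Birc3 had log2 fold changes of 0.23 (SE 0.08, adjusted p by edgeR = 0.0589) and -0.00 (SE 0.14, adjusted p by edgeR = 0.992). Yap1, an effector of Hippo signalling named here after its value was seen, had one of -0.19 (SE 0.07, adjusted p by edgeR = 0.0529). The gene called lower, named after its values were seen, was Cep126, 508 kb from Mmp8, which fell from 4.32 ± 0.0151 to 2.1 ± 0.654 CPM (log2 fold change -1.04, adjusted p by edgeR = 0.0115). Without JagKO2, 1 gene was higher and 3 were lower, and without Scramble replicate 2, 1 was higher and 2 were lower.

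**Figure D4:**
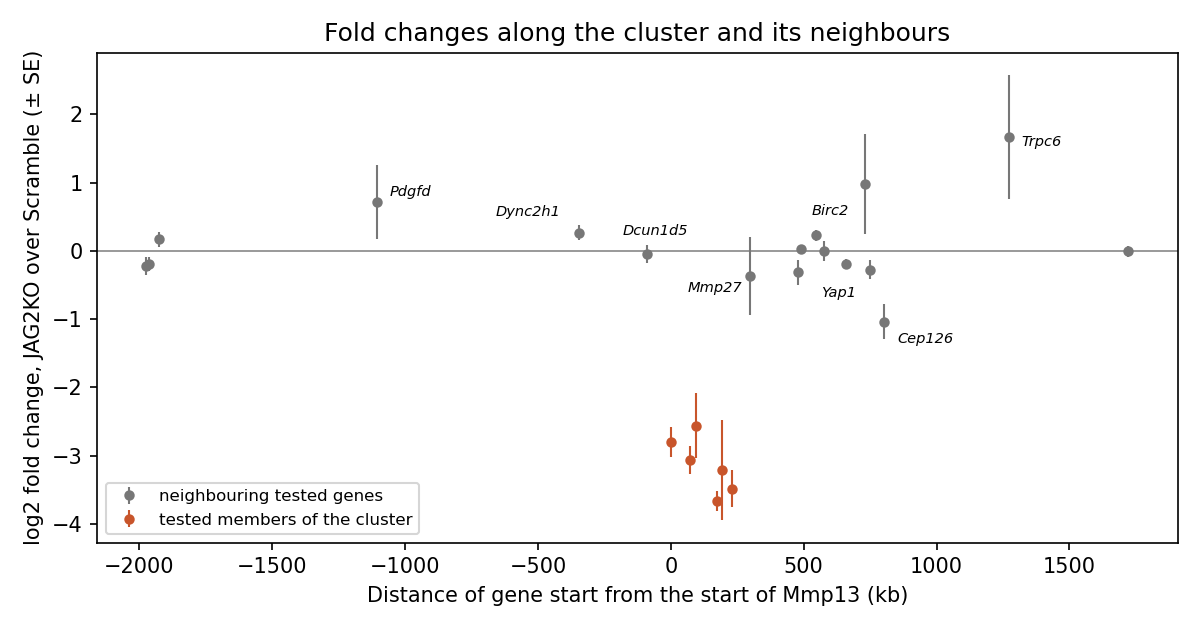
Log2 fold change of JAG2KO over Scramble (points) with its standard error (bars) for the 6 tested members (orange) and the 17 tested neighbours (grey), against the distance of the gene start from that of Mmp13 in kb. The members lie between -3.66 and -2.56. Of the nearest tested genes on either side, Dcun1d5 is at -0.04. Mmp27, with few counts, is at -0.37 with a wide error (SE 0.57).

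Genes that act on the cluster's promoters or enzymes, or whose proteins the enzymes cut, were counted from 9 lists. Over all lists together, 35 genes were called higher and 24 lower. Their share of the tested genes pooled over the lists was not computed, so these totals have no background beside them. The count of each list is to be read beside the shares over all tested genes, 11.8% higher and 12.5% lower. The median log2 fold change of a list ran from -0.15 (inhibitors and uptake receptors) to 0.42 (other metalloproteinases), against 0.00 over all tested genes and -3.14 for the 6 tested members. Among AP-1 subunits, 6 of 15 tested genes were higher and 1 lower by edgeR (3 higher without Scramble replicate 1; 0 to 3 lower as single libraries were left out). Fosl2 rose with a log2 fold change of 1.07 (adjusted p by edgeR = 0.00022), and Maf, of the related Maf group, with 0.87 (adjusted p by edgeR = 0.00526). Fos and Jun, the founding subunits, are named after their values were seen. Fos had means of 1208 ± 95.3 (Scramble) and 921 ± 232 CPM (JAG2KO), and Jun of 1761 ± 138 and 1883 ± 354 CPM (SD, n = 3; adjusted p by edgeR = 0.071 and 0.59). Ets and Runx factors had 3 of 19 tested genes higher and 3 lower, close to the shares over all tested genes. Elk4 was at 0.36, Etv4 at -0.39 and Etv5 at -0.31 (adjusted p by edgeR = 0.00339, 0.00635 and 0.0134). Etv5 lost its call without Scramble replicate 1 or 2 (adjusted p by edgeR = 0.0635 and 0.0659). The higher Ets and Runx genes numbered 5 without JagKO2 and 1 without JagKO3, JagKO4 or Scramble replicate 3, and the lower ones 1 without Scramble replicate 1 or 2. Among NF-kappaB, C/EBP and STAT factors, 4 of 10 were higher and 1 lower, led by Rel at 1.64, Relb at 0.52 and Cebpa at -1.31 (adjusted p by edgeR = 1.43e-05, 0.00168 and 0.000696).

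Ligands known to induce stromelysins and collagenases had 1 of 19 tested genes higher (2 without JagKO2 or JagKO3) and 5 lower. The log2 fold changes of Pthlh, Fgf7 and Spp1 were -1.96, -0.64 and -0.53 (adjusted p by edgeR = 4.81e-05, 0.000276 and 0.00149). The ligand that rose was Tnf, named after its value was seen, from 0.0813 ± 0.0618 to 0.863 ± 0.182 CPM (log2 fold change 3.39, adjusted p by edgeR = 0.00192, or 4.15 without Scramble replicate 3). Of 24 receptors, 4 were higher and 7 lower (3 lower without JagKO4 or Scramble replicate 2). The interleukin-17 receptor gene Il17ra and the collagen receptor gene Itga2 had log2 fold changes of -1.16 and -1.74, and the epidermal growth factor receptor gene Egfr one of 0.80 (adjusted p by edgeR = 6.65e-06, 1.06e-05 and 2.4e-05).

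Among metalloproteinases outside the 7 members, 5 of 9 tested genes were higher and 0 lower by edgeR (3 higher without Scramble replicate 1, Scramble replicate 3 or JagKO4, and 1 lower without JagKO3). The gelatinase genes Mmp9 and Mmp2 and the membrane-bound Mmp14 rose with log2 fold changes of 1.29, 1.13 and 0.42 (adjusted p by edgeR = 6.74e-05, 0.0028 and 0.00293). The others were Mmp15 and Mmp28, named after their values were seen. At an unadjusted p under 0.05, 0 of these genes were lower and 1 activator was higher, and DESeq2 and limma-voom called 0 in either case. Among activators of the proenzymes, 0 of 7 tested genes were higher (1 without JagKO2) and 1 lower: Plau, the urokinase gene, fell by 0.36 (adjusted p by edgeR = 0.00645). Of 12 inhibitors and uptake receptors, 3 were higher (1 without Scramble replicate 1) and 4 lower. Reck, a membrane-anchored inhibitor, Thbs2 and Serpinb2 had log2 fold changes of -2.37, -1.43 and -1.33 (adjusted p by edgeR = 0.000163, 3.43e-06 and 0.00067).

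**Figure D5:**
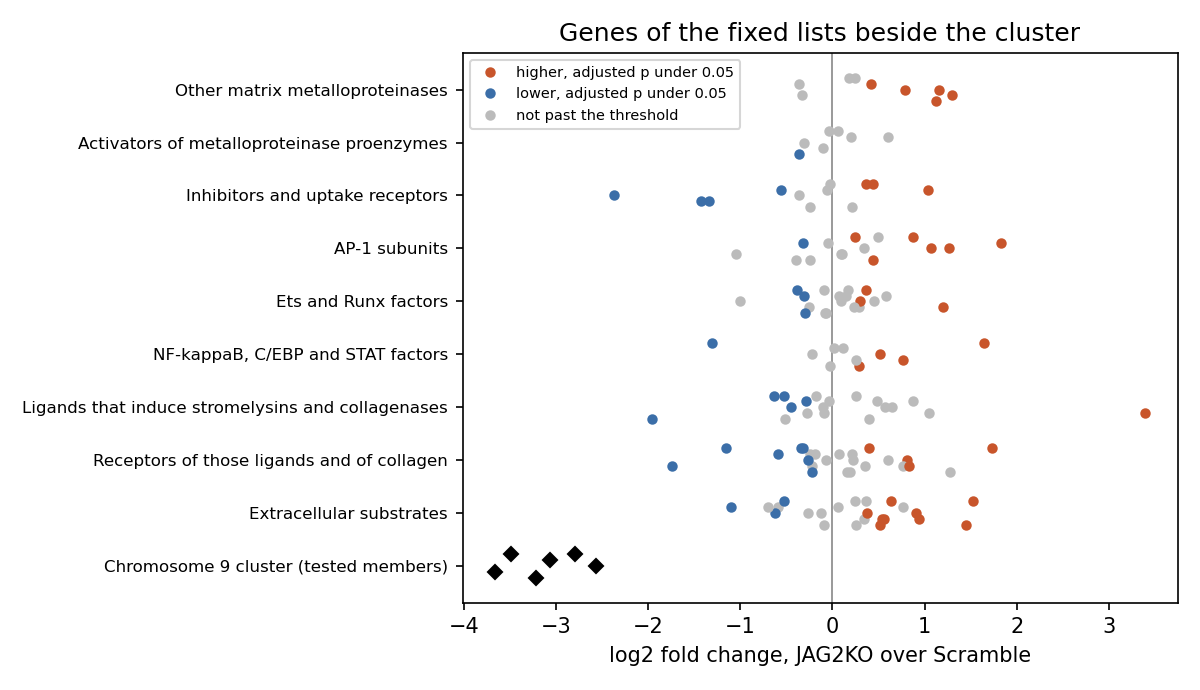
Log2 fold change of JAG2KO over Scramble for each tested gene of 9 fixed lists (circles; orange higher, blue lower, grey not past the edgeR threshold) and for the 6 tested members of the chromosome 9 cluster (black diamonds). The members lie between -3.66 and -2.56, and the listed genes spread on both sides of 0.

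Genes used as markers of other cells moved with the groups too, and which cells made their RNA was not tested. Over all tested genes, 11.8% were higher and 12.5% lower. Of 14 fibroblast markers, 8 were higher and 1 lower, and their sum ran from 5044 to 5141 CPM in Scramble and from 6413 to 10075 CPM in JAG2KO. Thy1 and Pdgfrb rose and Fap fell, with log2 fold changes of 1.33, 0.82 and -2.40 (adjusted p by edgeR = 4.63e-05, 0.000384 and 5.13e-06). Of 16 macrophage markers, 5 were higher, among them Lyz2 and C1qb, and Cd14 was lower (3 higher without Scramble replicate 2 or 3; 0 lower without Scramble replicate 2 and 2 without JagKO3). Of 10 endothelial markers, 6 were higher and 0 lower, with sums of 30.9 to 34.2 CPM in Scramble and 47.8 to 62.7 CPM in JAG2KO. Among 10 tested skin, muscle, cartilage and bone markers, 2 were higher, the basal keratins Krt5 and Krt14, and 0 lower (5 higher without JagKO3 or Scramble replicate 1). For these 10 and for the endothelial markers, 0 were lower at an unadjusted p under 0.05, by DESeq2 or by limma-voom. Between the groups, the marker sums of fibroblasts, macrophages and endothelial cells were thus all higher in JAG2KO, where the cluster was lower. Within each group the fibroblast and macrophage sums ran the other way. Both were lowest in the library with the lowest cluster sum, Scramble replicate 3 and JagKO4. The endothelial sum was lowest in Scramble replicate 2 and JagKO3. The part of these cells in the fall of the 6 tested members was not tested.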

How the data were processed

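PolyA RNA was sequenced in 6 libraries, 3 Scramble and 3 JAG2KO. The authors deposited 1 table of whole-number counts per gene, made with STAR 2.7.7a and HTSeq 0.11.2 per the submitters' processing notes; genome build, annotation, strand setting and read filters are not given there. Scramble columns match sample titles. JAG2KO columns are numbered differently from the titles and were used by group only.

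Of 55334 gene IDs, 180 had no symbol and held 0.00193% of counts; 54587 matched GENCODE M21 by version. The fit of the counts used edgeR 4.0.16 in R 4.3.3 (filterByExpr with minimum count 10 and total 15, TMM factors, quasi-likelihood F test, 4 residual degrees of freedom, Benjamini-Hochberg adjustment over 16049 genes, threshold 0.05). The standard error is the log2 fold change divided by the square root of F. Each library left out, close copies summed, DESeq2 1.42.0, voom in limma 3.58.1, a filter of CPM 1 in 3 libraries, no filter, unadjusted library totals and RLE factors were the alternatives. The script was tested on simulated data. Promoters are from RefSeq (GRCm38.p6).

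Members and lists were chosen with earlier results of these data known. The naming rule took Jag2, the members, Mmp7, Mmp20, Mmp27, the 3 nearest tested genes on each side, up to 3 called genes with the smallest p of each list (if none was called, the most abundant) and the 3 closest patterns to the 2 most abundant members; Mmp15, Mmp28 and genes so marked in the text were named after their values were seen. Of the genes the rule takes, 1 is not reported here.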

Additional observations from a re-analysis of the deposited data

How the results depend on the processing

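All 6 tested members were lower in JAG2KO under every alternative that tested them: RLE factors, library totals alone, no low-count filter, DESeq2, limma-voom and each library left out. With the filter of CPM 1 in 3 libraries Mmp1a was not tested, and 5 members were lower. Over these alternatives the log2 fold change ran from -3.81 to -3.55 for Mmp3, from -3.34 to -2.86 for Mmp12 and from -3.01 to -2.64 for Mmp13. It ran from -3.73 to -3.18 for Mmp10 and from -2.88 to -2.20 for Mmp1b. For Mmp1a it ran from -4.85 (without JagKO4) to -2.66 (without JagKO3) as libraries were left out, since 13 of its 16 JAG2KO counts were in JagKO4. Among the genes flanking the cluster, 1 was higher with the CPM filter and with DESeq2, and 2 were lower with DESeq2 and with limma-voom. As libraries were left out, 0 to 1 of them were higher and 1 to 3 lower. The genes that crossed the threshold were Birc2, Yap1, Casp1 and Dync2h1. List counts that moved by over 1.5 times outside the left-out libraries were as follows. With the CPM filter, 0 inducing ligands (1 before), 8 macrophage markers (5) and 2 epithelial markers (1) were higher. With DESeq2, 2 inducing ligands and 2 epithelial markers were higher, and with limma-voom 2 AP-1 subunits were lower (1). With no filter, 3 inducing ligands, 8 macrophage, 8 skin, muscle, cartilage and bone (2) and 2 epithelial markers were higher, and 3 AP-1 subunits and 1 other metalloproteinase (0) were lower; the cause was not tested. Depth limits Mmp8, Mmp1a and Mmp1b, which had few counts. No paired analysis was possible because the JAG2KO columns carry no replicate numbers that match the labels. The sources used here also do not say that Scramble and JAG2KO libraries with the same number belong together as a pair.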

Other observations

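RNA of genes for proteins that these enzymes cut or bind changed in both directions. Of 23 tested extracellular substrates, 9 were higher and 3 lower in JAG2KO by edgeR, beside 11.8% higher and 12.5% lower over all tested genes. The minor fibrillar collagen gene Col5a1 rose from 249 ± 4.74 to 362 ± 45.9 CPM (SD, n = 3; adjusted p by edgeR = 0.000605). The fibronectin gene Fn1 and the tenascin gene Tnc, both glycoproteins of the matrix, had log2 fold changes of -0.63 and -1.10 (adjusted p by edgeR = 0.000563 and 0.000277).

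Of 8 tested epithelial and mesenchymal markers, 1 was higher and 2 lower (2 higher without JagKO3). The simple keratin gene Krt8 fell from 124 ± 4.6 to 4.13 ± 0.839 CPM (adjusted p by edgeR = 1.72e-10), and Krt19 fell from 1.38 ± 0.0777 to 0.47 ± 0.127 CPM. N-cadherin, encoded by Cdh2, rose from 12.8 ± 1.58 to 43.2 ± 3.19 CPM (adjusted p by edgeR = 4.71e-07). Other members of this list, named after their values were seen, did not follow Krt8. The keratin gene Krt18 had higher means in JAG2KO, 306.5 ± 26.4 against 267.5 ± 7.86 CPM, and did not pass (adjusted p by edgeR = 0.0637). Krt7, Epcam and Cdh1 had lower means in JAG2KO and did not pass either (adjusted p by edgeR = 0.16, 0.638 and 0.907).

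Antisense or overlapping gene models share exons with Maf, Elk4, Cebpa, Serpinb2, Spp1, Yap1, Krt5, Krt8, Bmp4, Fn1, Tnc and Col5a1, so with an unknown strand setting their levels are uncertain.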
